A study of Mus musculus with 9 samples.

Results

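Striatal neurons convert dopamine and adenosine signals into cyclic AMP with a small set of enzymes and G proteins. The genes described here are 8 adenylyl cyclases, Adcy1, Adcy2, Adcy3, Adcy5, Adcy6, Adcy7, Adcy8 and Adcy9, and the G protein alpha subunits Gnal and Gnas. They were found by their Ensembl identifiers, which GENCODE M21 pairs with these symbols, and make up 10 of the 44886 genes listed. All 10 were among the 16368 genes kept by the filter on low counts. Adcy8 was chosen because it was higher in both mutants, so its values are given as a description without a test. The other 9 genes were listed for their function, with earlier results of these data already known.

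RNA was sequenced from the dissected striatum of mouse embryos at E17.5, with 3 brains per genotype and 1 library per brain. The 3 groups were labelled Control, Islet1Cre;Ebf1fl/- and Dlx5/6::Cre;Ebf1fl/-, all of strain C57BL/6 by their labels, although the study's methods keep the Islet1Cre line on a B6D2F1/J background. The mutants carried 1 null and 1 floxed allele of the transcription factor Ebf1. By the protocol in the sample labels, fathers with Cre and Ebf1+/- were mated to mothers that were Ebf1fl/fl, and the methods describe controls as heterozygous embryos, whereas the labels say only Control. Islet1Cre acts in the striatal projection neurons of the direct pathway and in cholinergic interneurons, and Dlx5/6::Cre acts in all striatal projection neurons and in interneurons, so that neither line deletes Ebf1 in every striatal cell. The study reports that interneurons of the striatum do not express Ebf1, and that staining at E17.5 found no striatal Ebf1 protein in either mutant. The comparisons ask whether the RNA of the cyclic AMP machinery changed when Ebf1 was deleted with either Cre line. Both mutants were compared with the same 3 controls, so these comparisons are not independent of each other.

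Adenylyl cyclases make cyclic AMP from ATP in the cell membrane. In the striatum, the dopamine receptor Drd1 of direct pathway neurons and the adenosine receptor Adora2a of indirect pathway neurons signal through the olfactory type stimulatory subunit encoded by Gnal, whereas most other tissues use the widely expressed subunit encoded by Gnas. Adcy5 is the cyclase best known in adult striatal projection neurons. Adcy1, Adcy3 and Adcy8 belong to the group regulated by calcium and calmodulin, Adcy2 and Adcy7 to the group that G protein beta-gamma subunits can stimulate, Adcy5 and Adcy6 to the group inhibited by calcium, and Adcy9 forms a branch of its own.

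Libraries are named below by the Cre line in their label, as libraries with Islet1Cre or with Dlx5/6::Cre. They held between 16548083 and 41507049 counts. Counts of Ebf1 summed over all exons were 264.3, 470.4 and 321.5 CPM (counts scaled to a common library size) in the controls, 506.7, 458.7 and 439.2 CPM with Islet1Cre and 391.5, 433.9 and 506.2 CPM with Dlx5/6::Cre. The mutant libraries were not lower (adjusted p = 0.599 and 0.399, edgeR), and since a gene total includes exons outside a floxed segment it does not check the genotype labels, which are therefore used as given. Markers of striatal projection neurons summed to between 3222 and 3963 CPM in the 9 libraries, as the tissue label requires. Dlx5/6::Cre;Ebf1fl/- replicate 1 stood apart: its markers of dividing progenitors summed to 409.7 CPM against 68.0 to 119.1 elsewhere, and its markers of cortical excitatory neurons to 243.1 CPM against 42.5 to 111.7. Islet1Cre;Ebf1fl/- replicate 3 held both the female transcript Xist, at 241.7 CPM, and Y-linked transcripts, with Ddx3y at 19.4 CPM. Control 3 held Xist at 400.4 CPM with Ddx3y at 2.0 CPM, and in every other library one of the pair was at or below 0.108 CPM. Of those libraries only Control 2 held more Ddx3y than Xist, at 30.4 and 0.108 CPM. Ddx3y was at 0 CPM in the Dlx5/6::Cre libraries, so embryo sex was not balanced between the groups. Its part in the results was not tested. Values without Dlx5/6::Cre;Ebf1fl/- replicate 1, Islet1Cre;Ebf1fl/- replicate 3 or Control 3 stand beside some of the results that moved with them.

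Adcy8, which encodes a cyclase stimulated by calcium and calmodulin, lies on chromosome 15 (GRCm38 chr15:64697084-64922296, minus strand). Because cyclases share conserved catalytic domains, the coding sequence of Adcy8 was compared with those of the other genes at the read length of 75 bases. Its closest relative over such a window was Adcy1, also stimulated by calcium and calmodulin, with 60 identical bases and 15 mismatches. Both windows are shown because they are the stretch in which a read of Adcy8 most resembles a read of another gene in the set. They are taken from the GENCODE M21 transcripts with the differing bases in capitals. The Adcy8 window joins exons 15 and 16 of 18 in the transcript with the longest coding sequence (chr15:64704196-64704684, minus strand) and the Adcy1 window joins exons 16 and 17 of 20 (chr11:7161399-7161899, plus strand).
Adcy8: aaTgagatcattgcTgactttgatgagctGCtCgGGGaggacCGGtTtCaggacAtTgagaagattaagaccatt
Adcy1: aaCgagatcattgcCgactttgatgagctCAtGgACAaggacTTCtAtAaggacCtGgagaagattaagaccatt
No 75-base window of any Adcy8 transcript was shared exactly with another gene on either strand.

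Adcy8 was read 40, 65 and 41 times in the controls, 178, 329 and 71 times with Islet1Cre and 169, 249 and 353 times with Dlx5/6::Cre. Scaled for library size, these were 1.20, 1.76 and 1.31 CPM in the controls, 7.99, 7.72 and 4.22 CPM with Islet1Cre and 6.07, 7.52 and 9.52 CPM with Dlx5/6::Cre. All 6 mutant libraries lay above all 3 controls, and the mutant groups overlapped each other. Groups that do not overlap were found for 15.2% of all genes tested with Islet1Cre and 21.0% with Dlx5/6::Cre, and 0.434% of all genes passed an adjusted p of 0.05 as higher in both mutants, the pattern for which Adcy8 was chosen. The mean was 1.42 ± 0.29 CPM (SD, n = 3) in the controls, 6.65 ± 2.10 CPM with Islet1Cre and 7.70 ± 1.73 CPM with Dlx5/6::Cre, which is 4.67 and 5.41 times the control mean. The log2 difference from control was 2.23 (SE 0.29) with Islet1Cre and 2.43 (SE 0.29) with Dlx5/6::Cre, and the difference between the mutants was 0.21 (SE 0.27). Since the gene was chosen on these values, they carry no test.

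The Adcy8 difference was also refitted on the same libraries, which reuses the values it was chosen on and is a description only. Over 17 alternative settings, each library left out in turn among them, it ranged from 2.08 to 2.46 on the log2 scale with Islet1Cre and from 2.24 to 2.61 with Dlx5/6::Cre. Islet1Cre;Ebf1fl/- replicate 3, the shallowest library and the one with both sets of sex-linked transcripts, was the lowest of the mutants, and without it the Islet1Cre difference was 2.46. Without Dlx5/6::Cre;Ebf1fl/- replicate 1 the Dlx5/6::Cre difference was 2.57. Markers of cortical excitatory neurons summed to 102.5 to 243.1 CPM with Dlx5/6::Cre against 42.5 to 100.1 CPM in the controls, and their part in the Dlx5/6::Cre value was not tested. In the Islet1Cre libraries the same markers summed to 45.9 to 75.2 CPM, within the control range. Their markers of dividing progenitors, at 95.24 to 119.1 CPM, lay above the 68.0 to 94.96 CPM of the controls, whereas Dlx5/6::Cre replicates 2 and 3 stood at 83.9 and 82.1 CPM. Markers of microglia summed to 88.8 to 98.0 CPM with Dlx5/6::Cre against 79.2 to 86.2 CPM in the controls. Of the 10 cortical, 5 progenitor and 7 microglial markers, 0 were called by edgeR in either mutant. Of the 8 markers of striatal projection neurons, 1 was called lower with Dlx5/6::Cre, where 1.34% of all genes were, and 0 with Islet1Cre. The part of these marker shifts in the Adcy8 values was not tested. In bulk tissue, more cells of a type and more RNA per cell cannot be told apart.

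**Figure D1:**
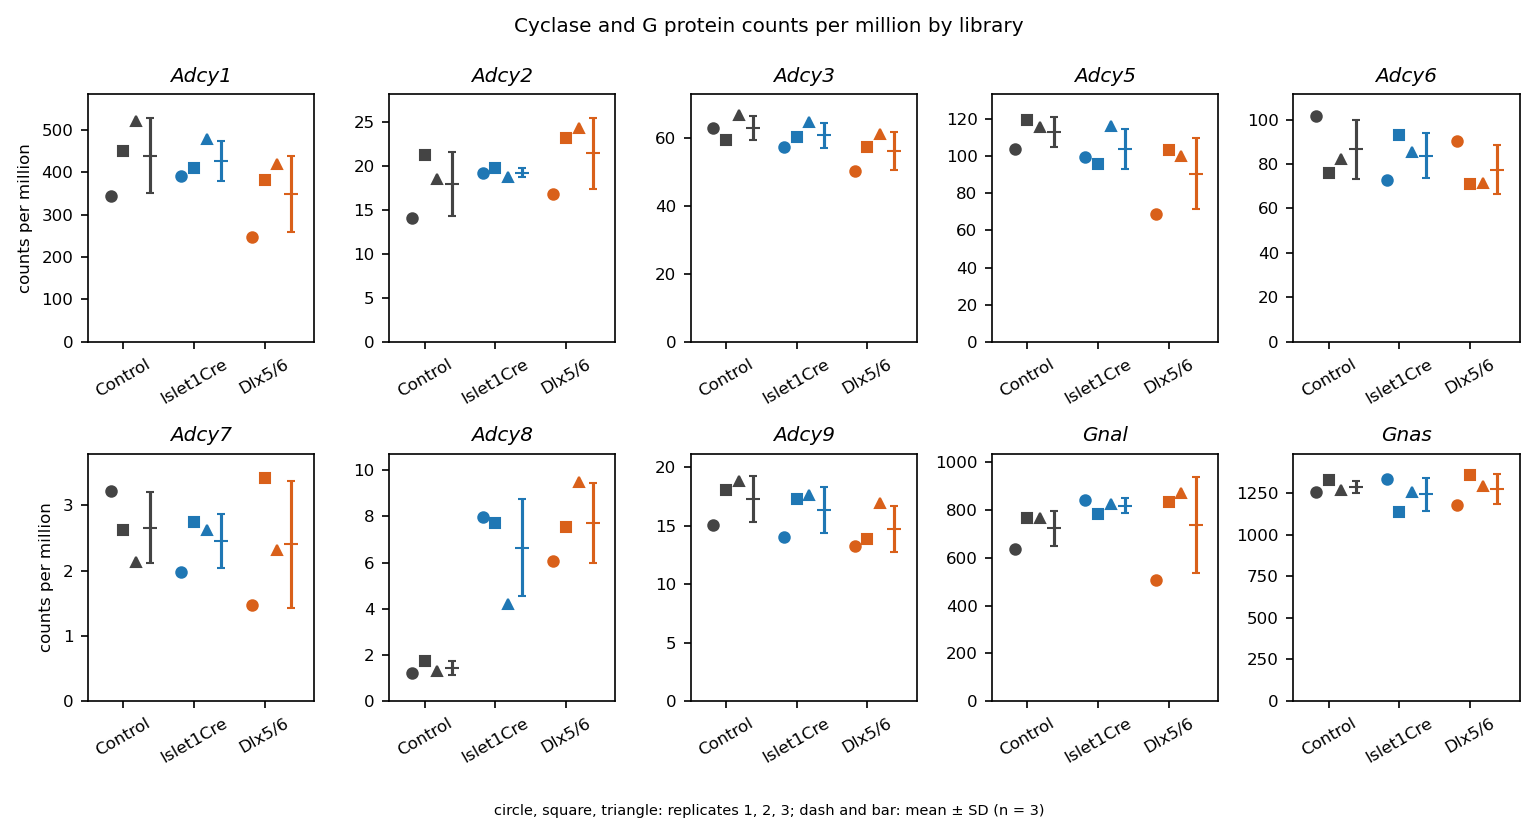
CPM, scaled for library size, of each of the 10 genes in every library, on a linear axis from 0 for each gene. Circles, squares and triangles mark replicates 1, 2 and 3 of Control, Islet1Cre;Ebf1fl/- and Dlx5/6::Cre;Ebf1fl/-, and the dash with its bar gives the mean ± SD (n = 3). Adcy8 is the gene whose 6 mutant libraries, at 4.22 CPM and above, all lie clear of the controls, which reach 1.76 CPM.

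To compare genes with one another, counts were divided by the union exon length of the gene, giving a level in CPM per kilobase of exon. The controls showed a wide order of levels. Gnas stood highest, at a level of 115.0 ± 3.3 (SD, n = 3), followed by Gnal at 64.7 ± 6.7 and Adcy1 at 35.0 ± 7.1. Adcy5 followed at 15.7 ± 1.1 and Adcy6 at 12.8 ± 1.9, and these neighbours overlapped between libraries. Below them came Adcy3 at 10.1 ± 0.6, then Adcy2 at 4.25 ± 0.85 and Adcy9 at 3.33 ± 0.38, a second pair that overlapped. Adcy7 at 0.395 ± 0.080 and Adcy8 at 0.175 ± 0.036 were the lowest. Using the longest transcript in place of the union length moved Gnal to 125.9 and Gnas to 325.8 and left the order of all 10 genes as it was.

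The order was the same in both mutants apart from the last places. Adcy8 reached a level of 0.815 ± 0.258 (SD, n = 3) with Islet1Cre and 0.945 ± 0.212 with Dlx5/6::Cre, above Adcy7 at 0.363 ± 0.061 and 0.357 ± 0.145, with ranges that did not overlap. Even so Adcy8 remained a small part of the cyclase RNA. Of the summed level of the 8 cyclases it made up 0.180% to 0.262% in the controls, 0.602% to 1.33% with Islet1Cre and 1.25% to 1.49% with Dlx5/6::Cre. Adcy1 made up the largest share in each library, from 34.0% to 46.7%. The share of Adcy2 was 6.85% to 7.43% with Dlx5/6::Cre and 4.52% to 6.10% in the controls, which did not overlap, although its CPM values did. A share depends on all 8 cyclases, and the mean level of Adcy1 was 27.9 with Dlx5/6::Cre against 35.0 in the controls. In this comparison 21.0% of all genes had CPM values that did not overlap, and the share was not tested.

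The other 9 genes gave no change that passed an adjusted p of 0.05 by edgeR's quasi-likelihood test. With Islet1Cre 0 of 9 were called against 0.971% of all genes tested, with Dlx5/6::Cre 0 of 9 against 2.39%, and between the mutants 0 of 9 against 0% of all genes. Of the 9, only Gnal with Islet1Cre and Adcy5 with Dlx5/6::Cre had groups that did not overlap with the controls, which is 1 of 9 in each comparison against 15.2% and 21.0% of all genes, and between the mutants there was none, against 10.4%. DESeq2 also called 0 of the 9 in each comparison. At an unadjusted p of 0.05 the counts were 0, 1 and 0 of 9, where 7.93%, 15.5% and 5.16% of all genes passed. Their log2 differences from control lay between -0.12 and 0.18 with Islet1Cre and between -0.33 and 0.26 with Dlx5/6::Cre. The 95% intervals were narrowest for Gnas, from -0.25 to 0.15 with Islet1Cre and from -0.21 to 0.19 with Dlx5/6::Cre, and widest for Adcy7, from -0.79 to 0.56 and from -0.81 to 0.53.

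**Figure D2:**
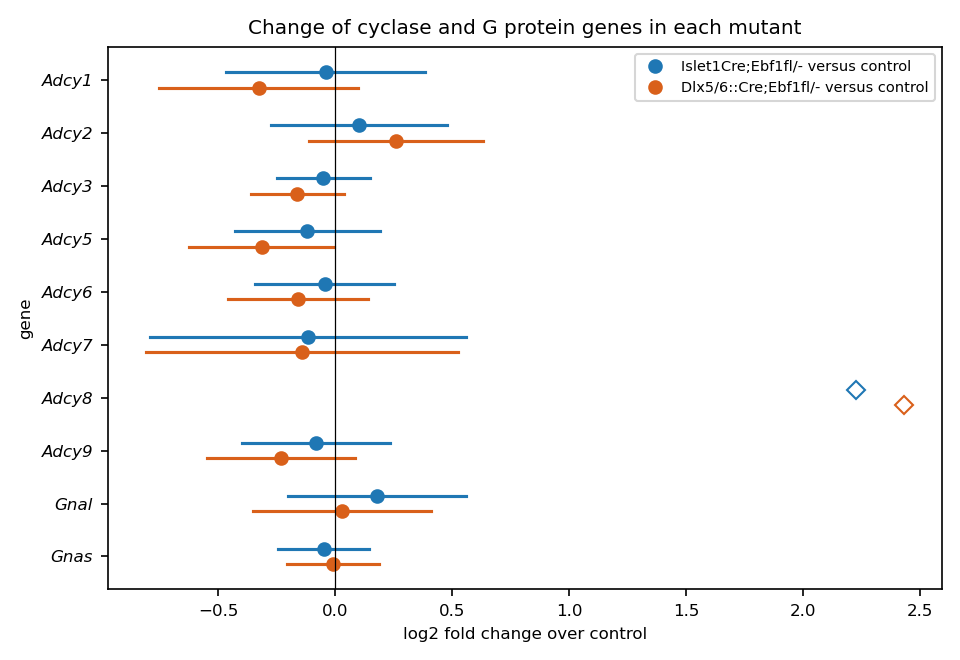
Log2 fold change over control of the 10 genes for Islet1Cre;Ebf1fl/- (blue) and Dlx5/6::Cre;Ebf1fl/- (orange), with 95% intervals from the edgeR fit as bars. Adcy8 is drawn as open diamonds without an interval because it was chosen on these values. The 9 other genes lie between -0.33 and 0.26, whereas Adcy8 lies at 2.23 and 2.43.

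Gnal (chr18:67088216-67226792, plus strand) encodes the stimulatory subunit that carries dopamine and adenosine signals to cyclases in striatal neurons. It stood at 635.5, 764.8 and 766.9 CPM in the controls, at 843.7, 785.1 and 825.7 CPM with Islet1Cre and at 506.1, 834.2 and 871.1 CPM with Dlx5/6::Cre. The 3 Islet1Cre libraries were above the 3 controls, but the log2 difference of 0.18 had a 95% interval from -0.20 to 0.56 and did not pass the test (edgeR, adjusted p = 0.983). With 1 library left out it ranged from 0.095 without Control 1 to 0.23 without Control 3, and was 0.17 without Islet1Cre;Ebf1fl/- replicate 3. With Dlx5/6::Cre the groups overlapped and the difference was 0.029, from -0.35 to 0.41 (adjusted p = 0.956). The lowest of the 9 libraries was Dlx5/6::Cre;Ebf1fl/- replicate 1, the one with the high progenitor and cortical markers, and without it the difference was 0.24 (adjusted p = 0.238).

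Gnas (chr2:174284320-174346744, plus strand), the stimulatory subunit found in most tissues, was the most abundant gene of the set per length. It was read at 1259, 1329 and 1271 CPM in the controls, at 1334, 1137 and 1256 CPM with Islet1Cre and at 1180, 1357 and 1293 CPM with Dlx5/6::Cre. The groups overlapped in both comparisons, with log2 differences of -0.050 and -0.011. The ratio of Gnal to Gnas within a library, in which the scaling for library size cancels, asks whether the balance of the stimulatory subunits moved. Its log2 was -0.84 ± 0.13 (SD, n = 3) in the controls, -0.60 ± 0.06 with Islet1Cre and -0.83 ± 0.34 with Dlx5/6::Cre. The Islet1Cre libraries were all above the controls, by 0.24, with p = 0.1 in a 2-sided exact permutation test, which is the smallest p that 3 against 3 libraries allow. With Dlx5/6::Cre the difference was 0.0061 (exact permutation p = 1.0), or 0.20 without replicate 1.

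Adcy5 (chr16:35154877-35305738, plus strand), the cyclase best known in striatal projection neurons, was the 1 gene of the 9 with an unadjusted p under 0.05. It stood at 103.8, 119.2 and 115.5 CPM in the controls, 99.7, 95.9 and 116.1 CPM with Islet1Cre and 68.8, 103.1 and 99.9 CPM with Dlx5/6::Cre. The highest values were in Control 2, Islet1Cre;Ebf1fl/- replicate 3 and Control 3, which held Ddx3y at 30.4, 19.4 and 2.0 CPM. The part of embryo sex was not tested. The Dlx5/6::Cre libraries lay below the controls by a narrow margin, 103.1 CPM against 103.8 CPM, apart from replicate 1, which was far lower. The log2 difference of -0.32 (95% interval -0.63 to -0.0049) had an adjusted p of 0.312 (edgeR), and without replicate 1 it was -0.15 (adjusted p = 0.464). With Islet1Cre it was -0.12 (adjusted p = 0.999), or -0.21 without Islet1Cre;Ebf1fl/- replicate 3.

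Adcy1 (chr11:7063489-7178506, plus strand), the most abundant cyclase per length, varied more between libraries than between genotypes. It was read at 344.6, 450.5 and 520.1 CPM in the controls, 390.5, 409.4 and 478.7 CPM with Islet1Cre and 247.8, 381.4 and 418.4 CPM with Dlx5/6::Cre. The groups overlapped, and the log2 differences of -0.041 and -0.33 had adjusted p-values of 0.999 and 0.441 (edgeR). Leaving out Dlx5/6::Cre;Ebf1fl/- replicate 1, again the lowest library, changed the latter to -0.13. Without Control 3 the Islet1Cre difference was 0.11.

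Adcy6 (chr15:98589973-98610076, minus strand), the calcium-inhibited relative of Adcy5, ranged from 70.9 to 101.4 CPM, with the highest value in Control 1. Adcy3 (chr12:4133103-4213525, plus strand), known from olfactory neurons where it works with Gnal, ranged from 50.3 to 66.8 CPM. Both had overlapping groups, with log2 differences of -0.046 for Adcy6 and -0.053 for Adcy3 with Islet1Cre and of -0.16 for each with Dlx5/6::Cre. Adcy9 (chr16:4287529-4420498, minus strand) ranged from 13.3 to 18.8 CPM, with differences of -0.083 and -0.23. Adcy2 (chr13:68620043-68999541, minus strand) ranged from 14.05 to 24.29 CPM and was the cyclase other than Adcy8 with the highest values relative to control, 0.10 and 0.26, neither of which passed the test. Adcy7 (chr8:88272403-88329962, plus strand) was scarce, at 1.47 to 3.41 CPM, and its differences of -0.12 and -0.14 had the widest intervals. Without Dlx5/6::Cre;Ebf1fl/- replicate 1 the Dlx5/6::Cre differences were -0.28 for Adcy6, -0.087 for Adcy3, -0.16 for Adcy9, 0.41 for Adcy2 and 0.10 for Adcy7, none of them called.

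The cyclases other than Adcy8 were also added up in each library as levels per length. The log2 of the sum was 6.35 ± 0.13 (SD, n = 3) in the controls, 6.29 ± 0.12 with Islet1Cre and 6.10 ± 0.22 with Dlx5/6::Cre. The differences from control, -0.051 and -0.24, had exact permutation p-values of 0.7 and 0.2, and the latter was -0.12 without Dlx5/6::Cre;Ebf1fl/- replicate 1. That library was the lowest of the 9 for Adcy1, Adcy3, Adcy5, Adcy7, Adcy9 and Gnal. It was not the lowest for Adcy6, where it stood at 90.4 CPM and was above both other libraries of its genotype. Its high progenitor and cortical marker sums moved with these low values, and their part in the results was not tested.

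**Figure D3:**
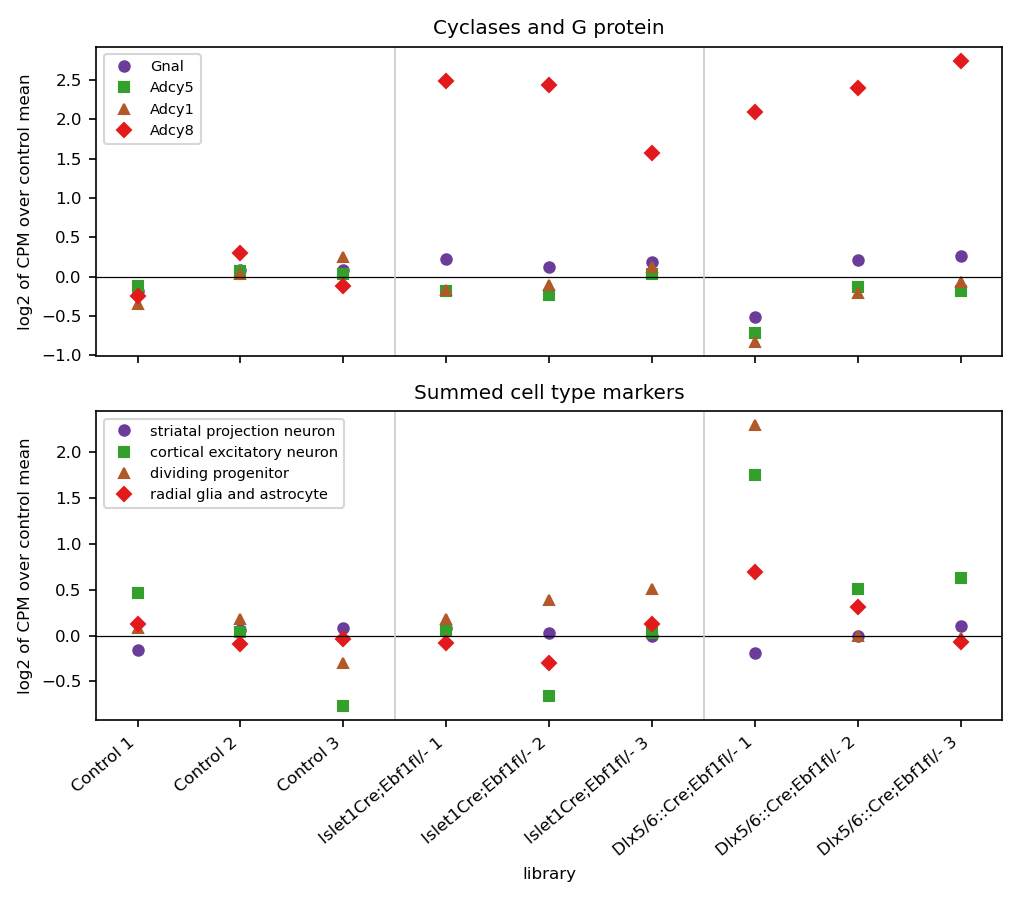
Log2 of CPM over the control mean in each of the 9 libraries, for Gnal, Adcy5, Adcy1 and Adcy8 (top) and for summed markers of striatal projection neurons, cortical excitatory neurons, dividing progenitors, and radial glia and astrocytes (bottom). Dlx5/6::Cre;Ebf1fl/- replicate 1 has the lowest Gnal, Adcy5 and Adcy1 and the highest progenitor and cortical sums, 409.7 and 243.1 CPM, whereas Adcy8 is above every control in all 6 mutant libraries.

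Some of these genes share their loci with others. Adcy3 shares 16.8% of its 75-base windows with the opposite strand, where Cenpo overlaps it, and Gnas shares 17.1%, where the antisense gene Nespas, read 8 to 36 times, and Gm20721, read 44 to 198 times, lie. For Gnal, which overlaps Mppe1 with 185 to 523 counts, the share was 6.97%. The strand setting of the counting is not given in the sources used here, so how reads of these overlaps were assigned is uncertain. Between paralogues the closest coding windows were Adcy5 with Adcy6, at 5 mismatches, and Gnal with Gnas, at 6.

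Around these genes, 112 further genes of the cyclic AMP pathway were listed, with the guanylyl cyclase subunits Gucy1a1 and Gucy1b1, which make cyclic GMP, among them. Of these 106 were tested. The list was drawn up with earlier results of these data known, so its shares are a description. With Islet1Cre 2 of the 106 (1.89%) were called, 1 higher and 1 lower, where 0.470% and 0.501% of all genes were. With Dlx5/6::Cre 5 (4.72%) were called, 1 higher and 4 lower, where 1.05% and 1.34% of all genes were. Between the mutants 0 were called by edgeR and 0 by DESeq2, and 8 had an unadjusted p under 0.05. These counts rested on single libraries: without any 1 of the controls or without Islet1Cre;Ebf1fl/- replicate 1 or 2, the Islet1Cre count was 0, and without Dlx5/6::Cre;Ebf1fl/- replicate 1 the counts were 7 and 10. Without Control 1 the Dlx5/6::Cre count was 3. DESeq2 called 9 and 12. The median log2 difference was 0.040 and 0.065 from control, against -0.0016 and 0.011 over all genes tested.

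Among receptors that stimulate cyclases, 0 of 19 were called in either mutant by edgeR or by DESeq2, and 1 and 3 had an unadjusted p under 0.05. This list holds Drd1, at 47.3 CPM in the controls, 75.2 CPM with Islet1Cre and 68.5 CPM with Dlx5/6::Cre (log2 differences 0.67 and 0.53, edgeR adjusted p = 0.346 and 0.293). It also holds Adora2a, at 168.3, 172.4 and 197.4 CPM (adjusted p = 0.999 and 0.393). Both were singled out as the textbook partners of Gnal after their values were seen.

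Among receptors that inhibit cyclases, 2 of 21 were called with Islet1Cre, where 0.971% of all genes were, and 3 of 21 with Dlx5/6::Cre, where 2.39% were. DESeq2 called 5 and 6 of the 21, and 5 and 10 had an unadjusted p under 0.05, where 7.93% and 15.5% of all genes did. The edgeR calls went in both directions, and the difference from the stimulating receptors was not tested. Adora1, the adenosine receptor that opposes Adora2a, was read at 125.1, 120.8 and 134.4 CPM in the controls, 80.2, 70.4 and 82.3 CPM with Islet1Cre and 55.9, 76.0 and 78.2 CPM with Dlx5/6::Cre. It fell in both mutants without overlap, by 0.71 (SE 0.12) and 0.85 (SE 0.12) on the log2 scale (edgeR adjusted p = 0.0250 and 0.0052). The Dlx5/6::Cre call was made with any 1 library left out. With Islet1Cre the adjusted p was 0.0557 to 0.154 without 1 of the controls or Islet1Cre libraries, and 0.0015 without Dlx5/6::Cre;Ebf1fl/- replicate 1. Grm7, a presynaptic glutamate receptor, stood at 19.9, 24.6 and 25.6 CPM in the controls, 42.1, 47.6 and 41.8 CPM with Islet1Cre and 35.3, 55.0 and 50.8 CPM with Dlx5/6::Cre. It rose in both, by 0.91 (SE 0.16) and 1.01 (SE 0.16), with adjusted p-values of 0.0270 and 0.0091 (edgeR) and no overlap with the controls. With Islet1Cre the adjusted p was 0.0601 to 0.158 without 1 of the controls or Islet1Cre libraries, and with Dlx5/6::Cre it was 0.0503 without Control 1. Without Dlx5/6::Cre;Ebf1fl/- replicate 1 these adjusted p-values were 0.0016 and 0.00041.

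Chrm4, the muscarinic receptor of direct pathway neurons, was at 15.8, 18.9 and 16.6 CPM in the controls, 8.80, 7.56 and 12.1 CPM with Islet1Cre and 5.06, 6.25 and 7.04 CPM with Dlx5/6::Cre. The groups did not overlap, and it was called lower with Dlx5/6::Cre, where it fell by 1.48 (SE 0.19) on the log2 scale (edgeR adjusted p = 0.0039). That call was made with any 1 library left out. With Islet1Cre the difference was -0.86 (edgeR adjusted p = 0.0762) and was not called. Its adjusted p was 0.0396 without Islet1Cre;Ebf1fl/- replicate 3 and 0.0178 without Dlx5/6::Cre;Ebf1fl/- replicate 1. Without any 1 of the other libraries it was 0.0906 to 0.342. The difference between the mutants, -0.62, had an adjusted p of 0.867.

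Downstream of the receptors few genes were called. The G protein beta subunit Gnb4 was the 1 called among 15 beta and gamma subunits and their chaperones, with 130.9 ± 3.8 CPM in the controls, 99.6 ± 10.1 CPM with Islet1Cre and 90.2 ± 12.1 CPM with Dlx5/6::Cre (SD, n = 3). It fell by 0.54 (SE 0.10) with Dlx5/6::Cre (edgeR adjusted p = 0.0262), and the difference of -0.40 with Islet1Cre had an adjusted p of 0.152. Without 1 of the controls the Dlx5/6::Cre call was lost, with adjusted p-values of 0.0643 to 0.107. Without Dlx5/6::Cre;Ebf1fl/- replicate 1 the adjusted p was 0.0223 with Dlx5/6::Cre and 0.0239 with Islet1Cre. Without any 1 of the other libraries the Islet1Cre value was 0.125 to 0.535. Of 9 anchoring proteins, which hold protein kinase A at its sites in the cell, 1 was called, Akap12, at 51.6 ± 6.4, 34.2 ± 5.4 and 30.3 ± 0.9 CPM (SD, n = 3). It fell by 0.77 (SE 0.12) with Dlx5/6::Cre (adjusted p = 0.0103), whereas with Islet1Cre the difference of -0.60 had an adjusted p of 0.0537, or 0.0482 with the replicate number as a block. Leaving out any 1 library kept the Dlx5/6::Cre call. With Islet1Cre the adjusted p was 0.0313 without Islet1Cre;Ebf1fl/- replicate 3 and 0.0246 without Dlx5/6::Cre;Ebf1fl/- replicate 1. Without any 1 of the other libraries the Islet1Cre value was 0.0757 to 0.262.

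In either mutant 0 of 3 other cyclases (Adcy4, Gucy1a1 and Gucy1b1), 0 of 9 other alpha subunits, 0 of 3 calmodulins, 0 of 10 protein kinase A subunits and inhibitors and 0 of 17 other cyclic AMP effectors and targets were called by edgeR. Over these 42 genes, 3 with Islet1Cre and 9 with Dlx5/6::Cre had an unadjusted p under 0.05, and DESeq2 called 1 and 2, all of them other alpha subunits. The embryo codes begin with IE in the Islet1Cre libraries and Controls 1 and 2 and with D in the others. What the codes stand for is not given in the sources used here. With that letter code as a covariate 0 of the pathway genes were called in either mutant, with adjusted p-values of 0.0942 and 0.0780 for Adora1 and 0.0638 and 0.268 for Grm7. The Adcy8 differences were 2.17 and 2.56 in the same fit. Among only the libraries with code IE, Adora1 and Grm7 were called with Islet1Cre.

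**Figure D4:**
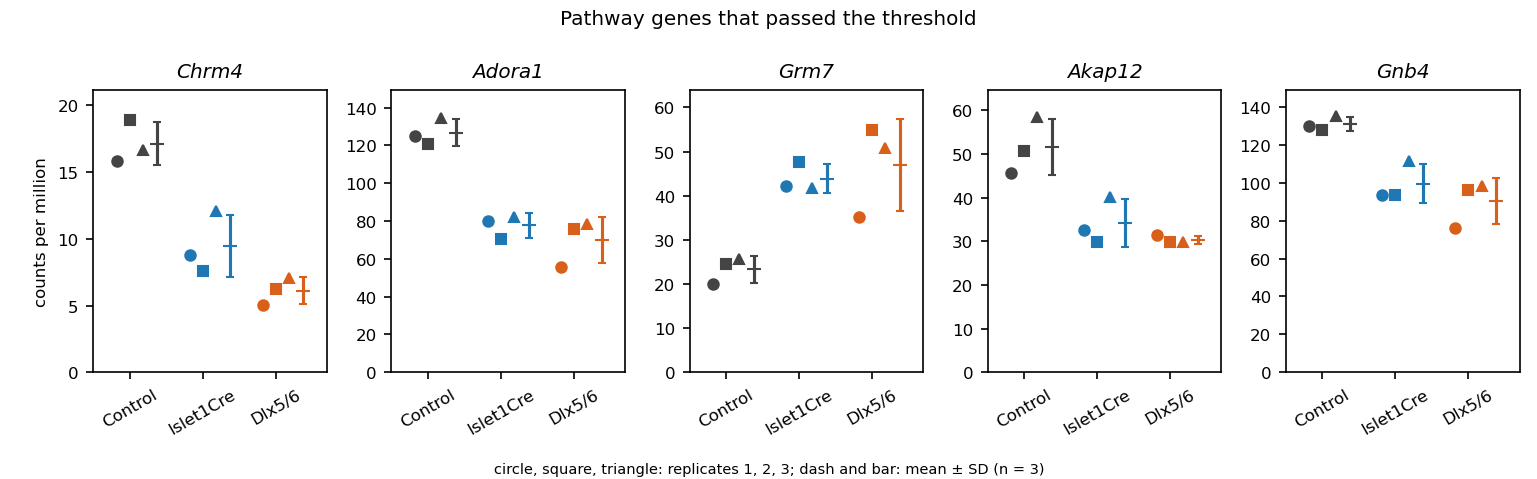
CPM of the 5 pathway genes called in at least 1 mutant, on linear axes from 0, in every library, with circles, squares and triangles for replicates 1, 2 and 3 and the mean ± SD (n = 3) beside them. Chrm4, Adora1, Akap12 and Gnb4 are lower and Grm7 is higher in all 6 mutant libraries than in any control, although in the Islet1Cre;Ebf1fl/- group only Adora1 and Grm7 passed the adjusted threshold.

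The genes whose profiles were most like that of Adcy8 were found by the root mean square difference over the 9 libraries between log2 CPM values, each taken relative to the control mean, among 13843 genes with a mean of at least 1 CPM. They were Gfra1, the GDNF co-receptor (0.21), Malrd1 (0.23), the kinase Stk32a (0.36), the sorting receptor Sorcs3 (0.42) and the adhesion molecule Sdk1 (0.49). Gfra1 stood at 15.3 CPM in the controls, 71.5 CPM with Islet1Cre and 80.1 CPM with Dlx5/6::Cre, ratios of 4.68 and 5.25 beside 4.67 and 5.41 for Adcy8. Malrd1 stood at 0.289 CPM in the controls, 1.29 CPM with Islet1Cre and 1.49 CPM with Dlx5/6::Cre, so it reached the mean of 1 CPM only through the mutants. Sorcs3 stood at 13.6, 49.5 and 47.2 CPM and Sdk1 at 8.06, 25.6 and 28.9 CPM. These genes were selected for this likeness, so their values are a description. Without Dlx5/6::Cre;Ebf1fl/- replicate 1, 4 of the 5 were again among the closest 5.

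For Gnal and Adcy5, whose profiles are flat, likeness was measured after each profile was divided by its own root mean square, over 3616 genes with a root mean square of at least 0.3. The genes closest to Gnal were Clvs2 (0.18), Cd55 (0.28), B3galt5 (0.31), Spata2l (0.37) and Gpr176 (0.38). Those closest to Adcy5 were Synpo (0.15), a postsynaptic actin regulator, Ache (0.15), which breaks down acetylcholine, Fam81a (0.16), Doc2b (0.19) and Slc24a3 (0.19). Ache stood at 28.9 CPM in the controls, 26.8 CPM with Islet1Cre and 20.4 CPM with Dlx5/6::Cre. Both lists rested on Dlx5/6::Cre;Ebf1fl/- replicate 1, the lowest library for Gnal and Adcy5: without it 0 of the 5 genes named for Gnal and 0 of the 5 for Adcy5 were among the closest 5. The closest to Gnal were then Vgf, Grm5, Snx7, Ppm1h and Gng7. Those closest to Adcy5 were then Pdyn, Eif2s3y, Kdm5d, Uty and Kctd8, and Eif2s3y, Kdm5d and Uty are Y-linked. The part of embryo sex in the Adcy5 profile was not tested.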

How the data were processed

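The authors deposited a table of raw counts for each library, with the reads that fell on every Ensembl gene and no scaling. By the study's methods, poly(A) RNA was sequenced from 400 ng of total RNA as 75-base reads, and reads were filtered with Eoulsan, mapped with STAR 2.4.0k to mm10, freed of multi-mapping alignments and counted with HTSeq 0.5.3 on Ensembl annotation. Of 44886 gene identifiers, 44048 were named through GENCODE M21. Genotypes and replicate numbers came from the sample labels.

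Counts of all 9 libraries were fitted together in edgeR 4.0.16 (R 4.3.3) with TMM factors, filterByExpr with a minimum count of 10 and the quasi-likelihood test, and p-values were adjusted by Benjamini-Hochberg over 16368 genes with a threshold of 0.05. CPM values are scaled by TMM. Single values were compared by exact permutation of libraries. Brains were separate, so p-values measure the spread between embryos. Libraries of 1 genotype differed beyond sampling noise, with chi-square per degree of freedom of 10.8 to 50.8. Read depth limits Adcy7 and Adcy8 most.

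The members and lists were chosen with earlier results of these data known. Named genes were the 10 members, each pathway gene called in any comparison, Ebf1, genes overlapping a member and the 5 genes most like Adcy8, Gnal and Adcy5. For Gnal and Adcy5 the 5 most alike without Dlx5/6::Cre;Ebf1fl/- replicate 1 were named too. For likeness, 1 count was added before log2. The fit was tested on simulated data. Alternatives were DESeq2 1.42.0, its size factors, other filters, the 6 libraries of a comparison alone, a replicate block, the embryo code and leaving out each library. After the data were seen, likeness was also computed without Dlx5/6::Cre;Ebf1fl/- replicate 1 and the cyclase sum with the longest transcript length.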

Additional observations from a re-analysis of the deposited data

How the results depend on the processing

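No alternative called any of the 9 genes other than Adcy8, in 450 combinations of gene and setting. Their differences had another sign in 31, of which 22 left out a library. The adjustment for embryo code turned Adcy1 with Islet1Cre to 0.10 and, with Dlx5/6::Cre, Adcy7 to 0.17, Gnal to -0.057 and Gnas to 0.0070, as well as Adcy7 between the mutants to 0.42. Keeping only libraries of the same code gave 0.11, 0.17, -0.059 and 0.0040 for the first 4. Counts of calls moved most. With Islet1Cre 159 genes were called, 401 by DESeq2, 311 without the filter, 259 with 6 libraries and 61 with the code. With Dlx5/6::Cre 392 were called, 862 by DESeq2, 708 without the filter, 181 with 6 libraries and 32 with the code. Between the mutants edgeR called 0 (844 unadjusted), DESeq2 18, no filter 13, 6 libraries 2 and the code 1. Of the pathway genes, 2 with Islet1Cre became 9, 7, 5 and 0 by DESeq2, without the filter, with 6 libraries and with the code. The 5 with Dlx5/6::Cre became 12, 11 and 0 by DESeq2, without the filter and with the code. Code D holds 1 control, Control 3, so calls within that code are not counted. The causes were not tested. Leaving out 1 library gave 15 to 397, 143 to 613 and 0 to 4 genes and 0 to 7 and 3 to 10 pathway genes, highest without Dlx5/6::Cre;Ebf1fl/- replicate 1 for both comparisons with control. The Islet1Cre count moved by over 1.5 times without any library except Dlx5/6::Cre;Ebf1fl/- replicate 2, and the Dlx5/6::Cre count without any control or Dlx5/6::Cre library. The Gnal to Gnas ratio then moved between 0.16 and 0.29, -0.12 and 0.20, and -0.36 and -0.036, and the cyclase sum between -0.12 and 0.012, -0.33 and -0.12, and -0.28 and -0.064. Signs turned with Islet1Cre for Adcy1 (-0.19 to 0.11), Adcy2 (-0.047 to 0.24), Adcy6 (-0.13 to 0.083), Adcy7 (-0.24 to 0.042), Adcy9 (-0.17 to 0.013) and Gnas (-0.10 to 0.010). They turned with Dlx5/6::Cre for Adcy7 (-0.48 to 0.10), Gnal (-0.11 to 0.24) and Gnas (-0.057 to 0.044), and between the mutants for Adcy7 (-0.36 to 0.22), Adcy8 (-0.026 to 0.35), Gnal (-0.30 to 0.060) and Gnas (-0.021 to 0.094). Same-numbered deviations correlated between -0.23 and 0.18, and those of different numbers between -0.18 and 0.15. With 3 libraries per genotype this cannot decide whether replicate numbers pair the libraries. With the replicate block 143 and 363 genes and 0 of the 9 were called. Depth limits Adcy8 and Adcy7, at 40 to 353 and 41 to 117 counts.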
